A study of Mus musculus with 69 samples.

Results

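The organic anion and cation transporters of the kidney tubule were followed through 9 genes, Slc22a6, Slc22a8, Slc22a12, Slco1a1, Slc22a2, Slc47a1, Abcc2, Abcc4 and Abcb1a, chosen by gene symbol. All 9 had a row in each of 4 expression tables, which share 52404 genes. The tables hold RNA-seq of tubules microdissected from kidneys of wild-type male C57BL/6 mice. At 7 weeks of age the mice lost a kidney by unilateral nephrectomy (UNx) or were operated on without removal (sham). The libraries were of PT-S1, the initial part of the proximal tubule, or of CCD, the collecting duct of the cortex. The tubules were taken 24 h or 72 h after surgery. For PT-S1 there were 3 sham and 4 UNx animals at 24 h (8 and 9 libraries) and 5 and 5 animals at 72 h (12 and 12 libraries). For CCD there were 4 sham and 3 UNx animals at 24 h (8 and 7 libraries) and 4 and 4 at 72 h (7 and 6 libraries). The libraries of an animal were averaged, so that the animal is the replicate.

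These transporters move drugs, toxins, hormone conjugates and metabolic waste such as urate between blood and urine. Organic anions enter the proximal tubule cell from the blood through Slc22a6 (OAT1) and Slc22a8 (OAT3), which exchange them for dicarboxylates, and organic cations enter through Slc22a2 (OCT2). At the luminal side, cations leave through the proton exchanger Slc47a1 (MATE1), and anions, conjugates and many drugs leave through the ATP-driven pumps Abcc2 (MRP2), Abcc4 (MRP4) and Abcb1a (a P-glycoprotein). Slc22a12 (URAT1) takes urate back from the lumen, and Slco1a1 (an organic anion transporting polypeptide) is known in rodents from the luminal membrane of the late, straight proximal tubule.

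Slc22a6 and Slc22a8 are neighbouring genes on chromosome 19, and 8 of the members have a promoter window in the RefSeq table (build GRCm38.p6). The windows of this pair are shown because these 2 uptake carriers for the same class of substrate differed in how they varied between libraries, in PT-S1. The 250 bases before each start site follow, both on the plus strand, at chr19:8617746-8617995 for Slc22a6 and chr19:8592932-8593181 for Slc22a8, with CCAAT, a common promoter element, in capitals on either strand (ATTGG on the other).
Slc22a6: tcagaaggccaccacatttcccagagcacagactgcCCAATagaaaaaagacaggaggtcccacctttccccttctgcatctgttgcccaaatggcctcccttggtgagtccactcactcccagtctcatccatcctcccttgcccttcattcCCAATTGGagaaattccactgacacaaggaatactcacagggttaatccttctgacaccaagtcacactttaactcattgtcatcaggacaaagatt
Slc22a8: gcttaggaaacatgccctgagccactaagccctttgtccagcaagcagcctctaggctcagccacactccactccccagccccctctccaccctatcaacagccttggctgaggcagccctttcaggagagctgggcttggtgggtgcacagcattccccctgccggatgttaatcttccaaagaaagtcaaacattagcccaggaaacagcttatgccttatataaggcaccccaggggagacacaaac
CCAAT began 214 and 97 bases before the start of Slc22a6, and ATTGG, overlapping the second match, began 94 bases before it. Slc22a8 had no match in this window, Slc22a2 and Abcc2 did, and 33.8% of all 32851 windows held CCAAT on either strand. It was picked for display after 13 letter strings had been searched. The match is a description of the letters and not of binding. Among the other strings, GTTAAT (an HNF1 half-site, in 6.43% of windows) was found for both Slc22a6 and Slc22a8 and for no other member. TGACNNNGC (an antioxidant response element, in 10.2% of windows) was found for Abcc2 and Abcc4, and TATAAA, in 12.4% of windows, for Slco1a1.

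The values are TPM, transcript abundances divided by gene length and scaled to the same total in each library, so the depth of each library is unknown and no counting error can be given. Correlated with the other libraries of their table over genes with a mean of at least 1 TPM, 5 libraries had a median r under 0.92. These were 2 of sham animals in PT-S1 at 24 h, 2 of UNx animals in PT-S1 at 72 h and 1 of a sham animal in CCD at 72 h, and results that move without them are given both ways. Slc34a1, the sodium-phosphate carrier that defines the early proximal tubule, ranged from 1272 to 11207 TPM over the PT-S1 libraries and from 0.51 to 89.7 TPM over the CCD libraries.

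In sham PT-S1 at 24 h, Slc47a1 had the highest level of the 9 genes (553 ± 72.2 TPM, SD over 3 animals), above the animals' range of the next gene. The gap was narrow, with 490 TPM in its lowest animal and 487 TPM in the highest of Slc22a8. Averaged on the log2 scale the ranges overlapped (451 TPM of Slc47a1 in Sham 3, 481 TPM of Slc22a8 in Sham 2). Slc22a8 (391 ± 89.6 TPM) and Slc22a6 (356 ± 76.7 TPM), the anion uptake carriers, followed with overlapping ranges. The urate carrier Slc22a12 stood at 238 ± 72.3 TPM, overlapping with Slc22a6 in range but lower in each of the 3 animals. The cation carrier Slc22a2 (147 ± 24.5 TPM) and the pump Abcc2 (86.7 ± 10.02 TPM) each lay below it without overlap. Abcc4 (19.7 ± 10.9 TPM) and Slco1a1 (14.3 ± 12.0 TPM) could not be ordered, and Abcb1a was near 1 TPM (1.17 ± 0.628).

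The sham order at 72 h began again with Slc47a1 (357 ± 107 TPM, SD over 5 animals) and Slc22a8 (289 ± 88.2 TPM), and each neighbour in the order overlapped with the next except Abcc4 (12.8 ± 4.41 TPM) with Abcb1a (0.396 ± 0.222 TPM). Within animals, Slc47a1 was above Slc22a8, and Slc22a2 above Abcc2, in 5 of 5. The other overlapping neighbours kept their order in 1 to 4 of the 5 animals. Slc22a6, below Slc22a12, was at 137 ± 156 TPM. Its sham animals at 72 h were at 54.6, 93.1, 60.1, 60.95 and 415 TPM, and those at 24 h at 372, 273 and 424 TPM. So 4 of the 5 sham animals at 72 h lay under the lowest at 24 h, while Sham 5 lay within the range at 24 h. The tables of both times were normalized separately and this difference was not tested.

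**Figure D1:**
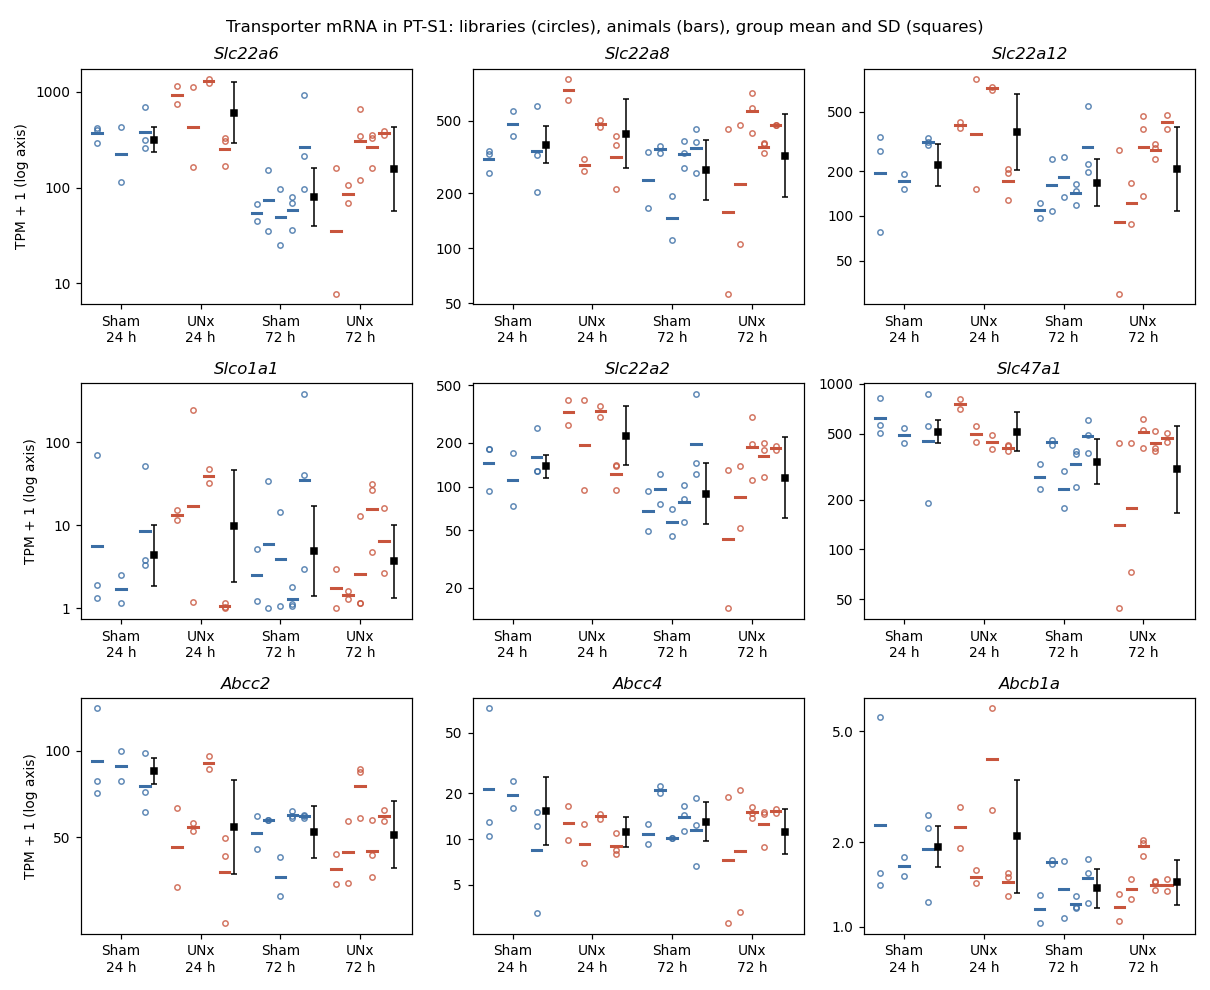
TPM + 1 on a log axis for each of the 9 genes in PT-S1, by treatment and time (sham in blue, UNx in red). Circles are libraries, short bars are animals (mean of log2 values), and black squares with error bars are the group mean and SD over animals. Slco1a1 spans 0.00 to 381 TPM over the libraries, often within 1 animal, while Abcc2 stays between 24.2 and 140 TPM.

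After nephrectomy, no member passed the test in PT-S1 at either time. At 24 h, 0 of 9 members had a limma adjusted p under 0.05, where 0.0% of the 11874 genes tested did. At an unadjusted p under 0.05 it was 1 of 9, Abcc2, against 17.8% of all genes. At 72 h, 0 of 8 members tested passed (0.0% of 11886 genes), and 0 of 8 had an unadjusted limma p under 0.05 (20.5% of all genes). Abcb1a was not tested at 72 h, because its mean was under 1 TPM. The animals of both groups overlapped for every member, whereas they did not overlap for 14.9% of all genes at 24 h and for 5.56% at 72 h. At 24 h 6 of 9 members were higher in UNx (median log2 change 0.20), at 72 h 4 of 8 (median 0.11). The median of all genes was -0.19 and -0.29, and relative to it 7 of 9 and 7 of 8 members lay above.

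Slc22a6 had the largest differences among the anion uptake carriers. At 24 h the sham animals were at 372, 273 and 424 TPM and the UNx animals at 949, 648, 1303 and 266 TPM. Of the 4 UNx animals, 3 lay above all sham animals and UNx 4 lay below them. The 6 markers of the S1 and S2 segments summed to 5758 to 8716 TPM in sham and 2862 to 6643 TPM in UNx animals. UNx 3, the highest in Slc22a6, was at 792 TPM of Slc5a2, the glucose carrier of the early proximal tubule, and the other animals were at 2290 to 3245 TPM. The part of these differences in the level of Slc22a6 was not tested. The log2 change was 0.93 ± 0.479 (SE; limma adjusted p = 0.313), 1.13 relative to the median of all genes. The 72 h UNx animals were at 83.2, 87.3, 379, 280 and 374 TPM beside the sham values above. The change was 0.98 ± 0.645 (SE; limma adjusted p = 0.337), and 1.48 when the 2 low-correlation UNx libraries were left out (limma adjusted p = 0.209). In mean TPM, UNx 3, 4 and 5 thus lay above 4 of the sham animals and below Sham 5. As means of log2(TPM + 1), the scale of the test, UNx 3 (8.25) and UNx 5 (8.55) lay above Sham 5 (8.07). UNx 4 (8.05) lay just below it.

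Slc22a8, the other anion uptake carrier, had smaller differences. Its sham animals lay at 310 to 487 TPM and its UNx animals at 288 to 747 TPM at 24 h, with a log2 change of 0.20 ± 0.310 (SE; limma adjusted p = 0.720) that was 0.035 when the 2 low-correlation sham libraries were left out. The 72 h ranges were 152 to 364 TPM in sham and 251 to 577 TPM in UNx animals, with a change of 0.25 ± 0.357 (SE; limma adjusted p = 0.642) that was 0.77 without the low-correlation libraries. The urate carrier Slc22a12 ranged from 171 to 315 TPM in sham and 175 to 720 TPM in UNx animals at 24 h (change 0.74 ± 0.405, SE; limma adjusted p = 0.331). At 72 h it ranged from 109 to 323 TPM in sham and from 127 to 429 TPM in UNx animals (change 0.31 ± 0.404, SE; limma adjusted p = 0.622), and the change was 0.72 without the low-correlation libraries.

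Slco1a1, the luminal anion carrier, had the widest spread. At 24 h the sham animals were at 23.7, 0.82 and 18.4 TPM and the UNx animals at 12.5, 122, 38.9 and 0.06 TPM. Both the highest and the lowest animal belonged to the UNx group, and the log2 change of 1.18 had an SE of 1.02 (limma adjusted p = 0.517); it was 0.64 without the low-correlation libraries. The sham animals at 72 h were at 2.21, 16.7, 6.78, 0.33 and 141 TPM and the UNx animals at 1.00, 0.455, 4.09, 20.0 and 8.36 TPM. Sham 5 was the highest there, and the change was -0.40 ± 0.834 (SE; limma adjusted p = 0.761). Reads of Slco1a1 and its neighbour and close paralog Slco1a4 may have been split between both genes by the authors' counting, so its level is uncertain.

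The cation uptake carrier Slc22a2 ran beside Slc22a6. At 24 h its sham animals were at 151, 121 and 169 TPM and its UNx animals at 331, 245, 331 and 123 TPM, so that again UNx 1, 2 and 3 lay above all sham animals and UNx 4 among them. The log2 change was 0.71 ± 0.323 (SE; limma adjusted p = 0.284). Those at 72 h were at 70.0, 98.5, 57.0, 79.7 and 233 TPM in sham and the UNx animals at 71.0, 94.1, 202, 165 and 184 TPM, with Sham 5 highest (change 0.37 ± 0.434, SE; limma adjusted p = 0.577). Without the low-correlation libraries the 72 h change was 0.83. Slc47a1, the exit route of the same cations, stood at 490 to 632 TPM in sham and 412 to 760 TPM in UNx animals at 24 h. Its log2 change was -0.0046 ± 0.223 (SE; limma adjusted p = 0.992) at 24 h and -0.15 ± 0.375 (limma adjusted p = 0.800) at 72 h. The 72 h value was 0.44 without the low-correlation libraries, and scaling by median ratios gave 0.23 at both times.

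Among the efflux pumps, Abcc2 was the single member with an unadjusted p under 0.05. Its sham animals at 24 h were at 95.9, 88.2 and 76.0 TPM and its UNx animals at 47.5, 53.1, 90.2 and 38.3 TPM. UNx 1, 2 and 4 lay below all sham animals and UNx 3 among them. The log2 change was -0.65 ± 0.265 (SE; limma unadjusted p = 0.0326, adjusted p = 0.264), -0.46 relative to the median of all genes. At 72 h the ranges were 35.9 to 58.8 TPM in sham and 38.1 to 75.3 TPM in UNx animals, and the change was -0.031 ± 0.219 (SE; limma adjusted p = 0.937), or 0.19 after quantile normalization and 0.35 after median-ratio scaling. Abcc4 had sham animals at 31.0, 19.0 and 9.24 TPM and UNx animals at 12.2, 8.73, 13.2 and 8.16 TPM at 24 h (change -0.46 ± 0.320, SE; limma adjusted p = 0.426). The highest of these, Sham 1, includes a low-correlation library at 71.4 TPM, and the change was -0.39 without such libraries. The Abcc4 change at 72 h was -0.22 ± 0.266 (SE; limma adjusted p = 0.592), 0.32 without the low-correlation libraries, 0.10 after quantile normalization and 0.092 after median-ratio scaling. Abcb1a was at 0.645 to 1.86 TPM in sham and 0.45 to 3.31 TPM in UNx animals at 24 h (change 0.12 ± 0.345, SE; limma adjusted p = 0.853). Its adjacent paralog Abcb1b shares much of its sequence, and the split of reads between both is uncertain.

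**Figure D2:**
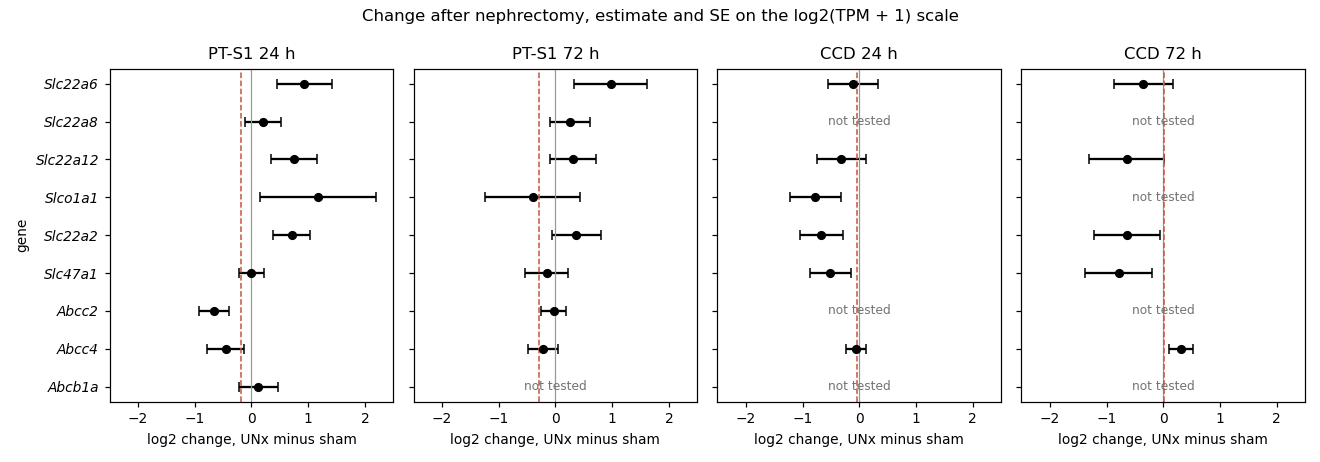
Log2 change of each gene, UNx minus sham, with its SE (bars), from limma in the 4 tables; the dashed red line is the median change of all genes tested and the grey line is 0. In PT-S1 at 24 h the uptake carriers lie to the right and Abcc2 and Abcc4 to the left, and no gene passed the adjusted test.

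Without the 4 low-correlation PT-S1 libraries, 0 members passed at either time. At 72 h 5 of 8 then had an unadjusted limma p under 0.05, beside 2116 of 11954 genes; the smallest limma adjusted p of a member was 0.209. At 24 h 0 of 9 did, beside 2919 of 11812 genes. In bulk tubules, fewer cells of a type and less RNA per cell cannot be told apart.

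Levels of Slco1a1 varied more between the libraries of an animal than those of any other member. The SD between libraries of the same animal was 2.28 on the log2 scale in PT-S1, followed by Slc22a6 at 1.16. Abcc2 was the steadiest at 0.339. In animal UNx 2 at 24 h, Slco1a1 was at 0.19 TPM in 1 library and at 245 TPM in the other. In the same pair of libraries Slc22a6 was at 162 and 1134 TPM, and Slc22a8 at 310 and 266 TPM. Between these 2 dissections Slco1a1 and Slc22a6 thus differed widely, while Slc22a8 differed little. The SD of Slc22a8 between libraries of the same animal was 0.662 on the log2 scale. UNx 2 is 1 animal, the one with the widest range of Slco1a1 in PT-S1.

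The gene whose levels ran most closely with Slco1a1, among 6330 genes with a mean of at least 10 TPM in both PT-S1 tables, was Slc7a13, an amino acid transporter of the S3 segment and a marker of it. Over 17 animals, centred within groups, Pearson r was 0.98 and Spearman rho 0.98. The library highest in Slc7a13 was also the highest of its animal in Slco1a1 in 15 of 17 animals, in Slc22a6 in 15, in Slc22a2 in 14, in Slc47a1 in 12, in Slc22a12 in 11, in Abcb1a in 10, in Abcc2 in 9, in Slc22a8 in 7 and in Abcc4 in 5. That library was the lowest of its animal in Abcc2 in 8 animals, in Slc22a8 in 8 and in Abcc4 in 7. In an animal with 2 libraries, a gene not highest in that library is lowest in it. With few libraries per animal such matches are frequent by chance. Their share over all genes was not counted, so the counts are a description. Over animals the other members ran less closely with Slc7a13: r was 0.73 for Slc22a12 (rank 631 of the 6330 genes), 0.70 for Slc22a6 (rank 1497), 0.68 for Slc22a2 (rank 1507) and 0.40 for Slc47a1 (rank 4483). It was 0.27 for Abcc2, 0.18 for Slc22a8 and 0.032 for Abcc4. At 24 h the 2 sham libraries with Slc7a13 above 10 TPM had a median of 561 TPM of Slc22a6, and the other 6 had 304 TPM. In UNx, 5 libraries above this level had a median of 1149 TPM and 4 others 234 TPM. At 72 h the medians were 152 and 43.6 TPM in sham (5 and 7 libraries) and 373 and 139 TPM in UNx (4 and 8 libraries). Slc22a8 had medians of 464 and 334 TPM in sham and of 502 and 339 TPM in UNx at 24 h, higher in the libraries with more Slc7a13. At 72 h they were 334 and 331 TPM in sham and 426 and 438 TPM in UNx.

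**Figure D3:**
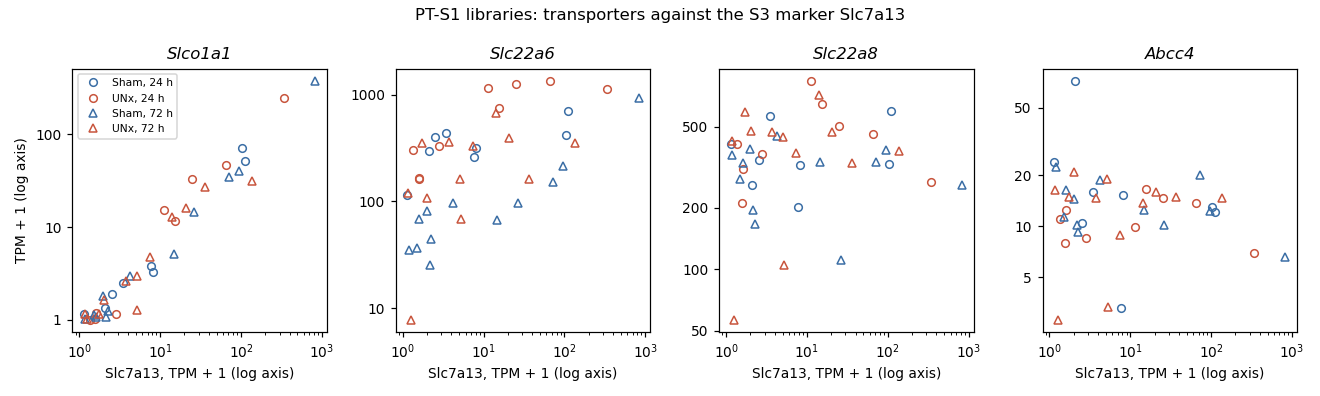
TPM + 1 of Slco1a1, Slc22a6, Slc22a8 and Abcc4 (y, log axis) against that of Slc7a13 (x, log axis) in the 41 PT-S1 libraries; circles are 24 h, triangles 72 h, blue sham and red UNx. Slco1a1 lies along a line, Slc22a6 is mostly higher where Slc7a13 is higher, and Slc22a8 is higher there by its medians at 24 h, while its medians at 72 h are 334 and 331 TPM in sham and 426 and 438 TPM in UNx. Abcc4 has medians of 11.6 and 14.6 TPM in sham and 12.7 and 8.77 TPM in UNx at 24 h, above and at or below 10 TPM of Slc7a13.

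Slc7a13 itself was at 25.9 ± 21.5 TPM (SD, 3 animals) in sham and 56.8 ± 77.3 TPM (4 animals) in UNx at 24 h, with a log2 change of 0.86 ± 0.986 (SE; limma adjusted p = 0.625). At 72 h the change was -0.54 ± 0.896 (SE; limma adjusted p = 0.701). Of the 5 S3 markers on the list, 3 averaged at least 1 TPM in each PT-S1 table: Slc7a13, Atp11a and, at 24 h, Slc7a12 or, at 72 h, Serpina1f. The summed level of all 5 was 24.3 to 111 TPM in sham and 14.1 to 243 TPM in UNx animals at 24 h, and 12.3 to 416 and 14.0 to 117 TPM at 72 h. Atp11a made up 51.7 TPM of that sum in the mean of the sham animals at 24 h, and its log2 change was -0.18 ± 0.638 (SE; limma adjusted p = 0.883). In CCD animals at 24 h Atp11a was at 19.4 to 35.5 TPM and Cyp7b1, also on the list, at 52.8 to 73.9 TPM, so neither is particular to S3 in these libraries. When the libraries with Slc7a13 above 10 TPM were left out, a setting chosen after the data were seen, 3 sham and 2 UNx animals kept a library at 24 h. The log2 change of Slc22a6 was then -0.45, of Slc22a8 -0.083, of Slc22a12 -0.30 and of Slc22a2 -0.19. At 72 h, with all 10 animals, Slc22a6 was at 1.67 (limma adjusted p = 0.160) and Slc22a2 at 0.71. With Slc7a13 as a covariate the Slc22a6 change was 0.61 at 24 h and 1.23 at 72 h. No member passed the test in these settings. What part S3 tubule had in the levels of each library was not tested further.

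Between PT-S1 animals the members moved together to differing degrees. Over 17 animals with group means removed, Slc22a6 and Slc22a2 had a Pearson r of 0.99 and a Spearman rho of 0.99. The permutation p within groups was 1e-05 for both, the smallest that 100000 permutations can give, and adjusted over 28 pairs it was 0.00028. Without the 2 animals farthest from the median r was 0.97, and without the low-correlation libraries 0.94. It was 0.98 at 24 h and 0.99 at 72 h. Slc22a6 and Slc22a12 followed with r of 0.92 and rho of 0.91 (adjusted permutation p = 0.00056 and 0.00098), 0.90 without the 2 farthest animals and 0.89 without the low-correlation libraries. Slc22a6 and Slc22a8 had r of 0.75 and rho of 0.75 (adjusted permutation p = 0.0127 and 0.0142), 0.68 without the 2 farthest animals and 0.49 without the low-correlation libraries.

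Of the 28 pairs among 8 members, 18 had an adjusted permutation p of r under 0.05, and all 28 values of r were positive. Positive values were common: over all pairs of the 6330 genes 74.1% were above 0, and 36.4% were at or above 0.62, the lowest r of those 18 pairs. The median r was 0.66 for the member pairs and 0.47 for all pairs. All pairs share the library and its scaling. Without the low-correlation libraries r was lower in all 7 pairs with Abcc4 and in 18 of the 21 others. For Slc22a6 with Abcc4 it moved from 0.48 to -0.033, for Slc22a8 with Slc22a12 from 0.59 to 0.24, and for Slc22a8 with Abcc4 from 0.68 to 0.63. By the same measure the gene most like Slc22a6 was Slc22a2, and the gene most like Slc22a2 was Slc17a3, a sodium-phosphate and urate transporter (r 0.99). Slc47a1 was most like Slc44a4 (r 0.98), Slc22a8 most like Ctsz (r 0.96), Slc22a12 most like Tkfc (r 0.95), Abcc4 most like Insig1 (r 0.93) and Abcc2 most like Sptbn1 (r 0.89).

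In the collecting duct Abcc4 was the member with the highest level, and the single one above 5 TPM in the mean of the sham animals. It stood at 19.4, 22.0, 20.8 and 20.2 TPM in the sham animals at 24 h and at 13.5, 20.9, 17.5 and 17.6 TPM in those at 72 h. In mean TPM these animals lay above the range of the next gene at both times. Averaged on the log2 scale, Sham 1 at 72 h was at 9.17 TPM of Abcc4 and 10.3 TPM of Slc22a12. The other members averaged 4.92 TPM (Slc22a6) down to 0.0325 TPM (Abcb1a) in sham at 24 h, and 4.37 TPM (Slc22a12) down to 0.0358 TPM (Abcb1a) at 72 h. Abcb1a was listed at 0 in 4 of 8 sham and 5 of 7 UNx libraries at 24 h.

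**Figure D4:**
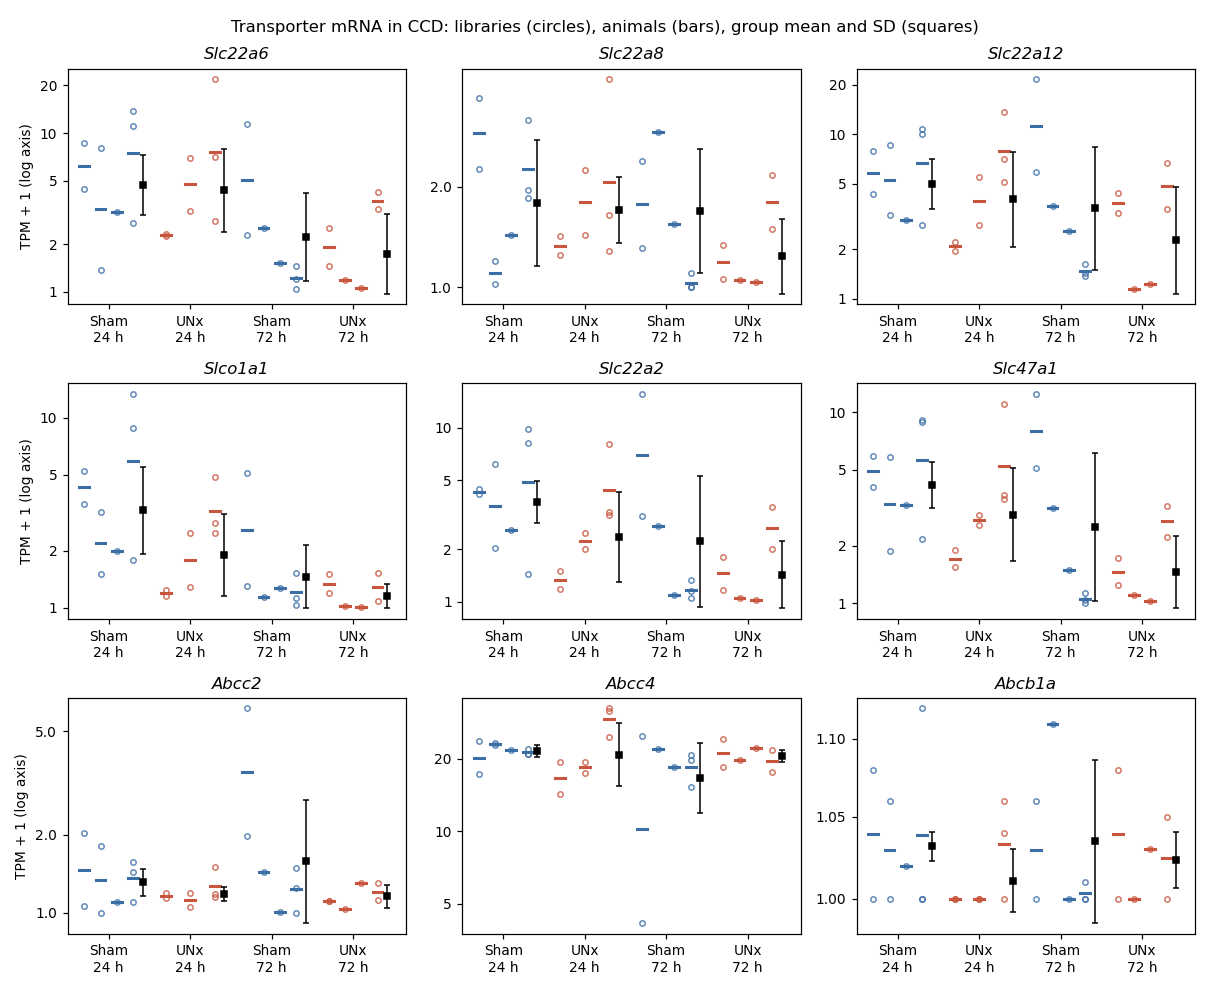
TPM + 1 on a log axis for the 9 genes in CCD, with circles for libraries, short bars for animals and black squares for the group mean and SD over animals (sham in blue, UNx in red). Abcc4 lies at 13.3 to 31.3 TPM, apart from 1 sham library at 72 h at 3.16 TPM. The other 8 genes have lower group means, and single libraries of Slc22a6 and Slc22a12 reach 20.9 and 20.6 TPM.

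Levels of several other members in CCD ran with Slc34a1, the proximal marker. Over 15 CCD animals, centred within groups, r with Slc34a1 was 0.94 for Slc22a6, 0.91 for Slc47a1, 0.89 for Slc22a2 and 0.89 for Slc22a12. It was 0.78 for Slc22a8, 0.63 for Slco1a1, 0.54 for Abcc2, 0.52 for Abcb1a and -0.19 for Abcc4. With Slc7a13 r was 0.98 for Slc22a2, 0.97 for Slc47a1, 0.91 for Slc22a12, 0.89 for Slc22a6 and 0.86 for Abcc2. The points share library and scaling, and the values are a description. The summed level of 9 proximal markers was 311 to 768 TPM in sham and 125 to 595 TPM in UNx animals at 24 h, and 32.2 to 2040 and 6.32 to 313 TPM at 72 h. The 6 principal cell markers summed to 21499 to 47270 TPM in sham and 44576 to 63809 TPM in UNx animals at 24 h. The part of proximal tubule RNA in these members' CCD levels was not tested. The level relative to Slc34a1 differed from that of PT-S1 for some members: Slc22a6 had a median of 19.0% of Slc34a1 in CCD libraries at 24 h and of 4.50% in PT-S1 libraries. For Slc22a8 it was 4.13% and 4.77%, and for Abcc2 0.891% and 0.753% (1.72% and 0.638% at 72 h). The 24 h medians in CCD and PT-S1 were 9.60% and 0.0255% for Slco1a1, and 140% and 0.136% for Abcc4. They were 19.3% and 3.07% for Slc22a12, 10.2% and 1.87% for Slc22a2, and 13.0% and 6.10% for Slc47a1.

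**Figure D5:**
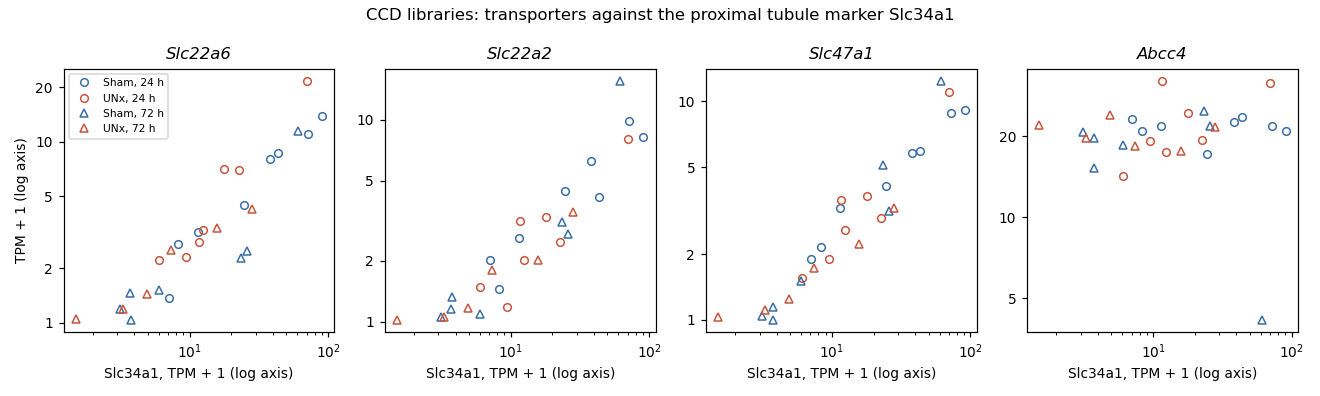
TPM + 1 of Slc22a6, Slc22a2, Slc47a1 and Abcc4 (y, log axis) against that of Slc34a1 (x, log axis) in the 28 CCD libraries; circles are 24 h, triangles 72 h, blue sham and red UNx. The first 3 genes are higher where Slc34a1 is higher, and Abcc4 is not.

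After nephrectomy no member passed the test in CCD. At 24 h it was 0 of 6 tested by limma adjusted p, where 0.987% of 13775 genes passed, and 0 of 6 by unadjusted p, where 15.5% did. At 72 h it was 0 of 5 (0.595% of 13770 genes), and 0 of 5 by unadjusted p (7.49%). Groups overlapped for every member, and did not for 15.1% of all genes at 24 h and 4.77% at 72 h. Slc22a8, Abcc2 and Abcb1a were under 1 TPM and not tested at either time, nor was Slco1a1 at 72 h.

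Abcc4 was at 15.8, 17.4 and 28.4 TPM in the UNx animals at 24 h, below and above the sham animals, with a log2 change of -0.054 ± 0.179 (SE; limma adjusted p = 0.923) that was 0.019 after quantile normalization. At 72 h the UNx animals were at 20.2, 18.7, 21.1 and 18.7 TPM and the change was 0.31 ± 0.217 (SE; limma adjusted p = 0.864). It was -0.013 without the low-correlation sham library at 3.16 TPM. The mean of log2(TPM + 1) was lower in UNx at 24 h for all 6 members tested, with TPM as deposited (5 after quantile normalization, where Abcc4 was at 0.019), from -0.77 ± 0.4499 for Slco1a1 (SE; limma adjusted p = 0.454) and -0.67 ± 0.384 for Slc22a2 (limma adjusted p = 0.451) to Abcc4. The mean TPM of Slc22a6 was 4.92 in sham and 4.997 in UNx. Slc34a1 itself was lower there by a log2 change of -0.59 ± 0.484 (SE; limma adjusted p = 0.606). Slc7a13 had a change of -1.31 ± 0.425 (SE, limma adjusted p = 0.184). The tested genes of the proximal marker list ranged from -1.67 for Kap (limma adjusted p = 0.265) to 0.23 for Miox (limma adjusted p = 0.811). At 72 h the 4 other members tested were lower, from -0.35 for Slc22a6 to -0.79 for Slc47a1, beside -1.26 ± 0.905 for Slc34a1 (limma adjusted p = 0.867). The 72 h change of Slc7a13 was -1.05 ± 0.772 (SE, limma adjusted p = 0.878). Sham 1, the animal with the low-correlation library, was at 12.8 TPM of Slc22a12 and the other sham animals at 0.48 to 2.64 TPM. For Slc22a2 it was at 8.41 TPM and the others at 0.09 to 1.72 TPM. Without that library the change was -0.41 for Slc22a12 and -0.63 for Slc47a1, and Slc22a6 and Slc22a2 fell under the filter. Without Sham 1, Slc22a12 was at -0.090 (limma adjusted p = 0.963) and the others except Abcc4 were not tested.

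The UNx effects of both times, and of both segments, were set against each other in a test of their difference, and no member passed. The titles use the same animal numbers in both segments and do not say whether the mice were the same. The test treated them as separate animals. For 72 h minus 24 h it was 0 of 8 members in PT-S1 (0.0% of 11455 genes) and 0 of 5 in CCD (0.0% of 13253 genes). For CCD minus PT-S1 it was 0 of 6 at 24 h (0.137% of 10988 genes) and 0 of 5 at 72 h (0.0% of 11035 genes). Slc22a2 had the smallest unadjusted limma p of these, 0.0225 at 24 h, with a difference of -1.38 ± 0.540 on the log2 scale (SE; limma adjusted p = 0.259). For Slc22a6 the difference between times in PT-S1 was 0.043 ± 0.951 (SE; limma adjusted p = 0.998), an error that leaves room for differences of either sign.

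The wider set of related genes held 56 genes with a row: other Slc22 and Slco carriers, other efflux pumps, urate and dicarboxylate partners, scaffolds of the brush border and transcription regulators. None passed the limma adjusted threshold, with 42 tested in PT-S1 at 24 h, 40 at 72 h, 36 in CCD at 24 h and 28 at 72 h. At an unadjusted limma p under 0.05 there were 5 of 42 in PT-S1 at 24 h (3 higher, 2 lower), beside 17.8% of all genes. At 72 h there were 5 of 40 (all lower), beside 20.5% of all genes. In CCD there were 6 of 36 at 24 h (1 higher, 5 lower), beside 15.5% of all genes, and 0 of 28 at 72 h, beside 7.49%. The median change of the set was -0.13 in PT-S1 at 24 h, beside -0.19 for all genes, and -0.13 beside -0.29 at 72 h.

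In 5 groups of that set, the gene with the highest sham level in PT-S1 at 24 h was as follows. Abcg2, a luminal pump for urate and drugs, stood at 684 ± 250 TPM (SD, 3 animals; UNx change 0.12, limma adjusted p = 0.740), above each of the 3 pumps among the members. Slco1a6 stood at 87.8 ± 40.0 TPM, and its change was 0.51 (limma adjusted p = 0.490).

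Slc17a1, a urate and phosphate transporter of the brush border, was at 691 ± 37.4 TPM and had a change of 0.61 ± 0.190 (SE; limma unadjusted p = 0.0088, adjusted p = 0.254). Pdzk1ip1, a small membrane protein that binds the scaffold Pdzk1, was at 2904 ± 440 TPM (change 0.14, limma adjusted p = 0.680). Hnf4a, a nuclear receptor that controls proximal tubule genes, was at 137 ± 50.3 TPM (change -0.54 ± 0.226, SE; limma unadjusted p = 0.0359, adjusted p = 0.268). Of the 9 regulators, 8 were lower in UNx at 24 h, and 4 of 9 lay above the median change of all genes; at 72 h it was 8 of 8 lower and 2 above that median.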

How the data were processed

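The authors deposited 4 tables of TPM values per gene and library, 1 for each segment and time. Per the submitters' processing notes, STAR and RSEM 1.3.3 were used with the mouse build GRCm39, and per the labels' protocols cDNA came from a SMART-Seq V4 kit for low input. TPM sums to 1000000 in each library, so depth is unknown. All 69 columns were used; 47 matched a single sample and 22 an animal only, which leaves the animal means untouched. Animals were told apart by the number that follows Sham or UNx in the titles.

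UNx was tested against sham within a table by limma 3.58.1 (R 4.3.3) on log2(TPM + 1), which understates changes of low genes, averaged per animal, with a filter at a mean TPM of 1 or more. Tests were two-sided, adjusted over all genes tested (Benjamini-Hochberg), with a threshold of 0.05. The procedure was run on simulated data in which the noise of each gene was drawn separately. Genes of the real data varied together, and the simulation did not cover that. Differences of effects used a model of 4 groups over both tables. Libraries with a median r under 0.92 over the genes that passed the filter were called low-correlation libraries; a first version over all genes was replaced after its result was seen.

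All members are named. Of the related genes, those past the threshold and the highest of each group in sham PT-S1 at 24 h are named, apart from items that are not reported here but are counted in the set. The members and lists were chosen with earlier results of these data known. Alternatives covered pseudocount, filter, scaling, averaging, replicate block and left-out animals or libraries. The symbol Nherf1 has no row, and Slc47a1 has no promoter shown. Python 3.11.15 was used for the descriptions.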

Additional observations from a re-analysis of the deposited data

Results flagged for a closer look

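In PT-S1 at 72 h, sham animal 5 stood apart from the other 4 sham animals in the TPM of 3 genes. These were 3 of the 41 groups of 4 or 5 animals examined for a single outlying animal. The check was made on TPM and not on log2 values, so the flags hold for the TPM scale only. A rate by chance of about 1 of 20 groups assumes a normal spread and separate groups. Here all 3 flags came from the same animal, and Slc22a6 and Slc22a2 ran together (Pearson r 0.99 over the 17 PT-S1 animals). Slc22a6 was at 415 TPM in that animal and at 54.6 to 93.1 TPM in the others, Slc22a2 at 233 TPM against 57.0 to 98.5 TPM, and Slco1a1 at 141 TPM against 0.33 to 16.7 TPM. As means of log2(TPM + 1), Slc22a6 was at 8.07 against 5.63 to 6.20 and Slc22a2 at 7.63 against 5.82 to 6.59. Slco1a1 was at 5.15 against 0.37 to 2.57. The 3 libraries of the animal differed: library 2 held 935 TPM of Slc22a6, 435 TPM of Slc22a2 and 381 TPM of Slco1a1, beside 828 TPM of the S3 marker Slc7a13. Library 3 held 95.3, 121 and 1.94 TPM of the same carriers and 3.22 TPM of Slc7a13. Without this animal the log2 change of UNx against sham was 1.42 for Slc22a6 (limma adjusted p = 0.283), 0.65 for Slc22a2 (adjusted p = 0.360) and 0.31 for Slco1a1 (adjusted p = 0.782).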

How the results depend on the processing

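The count of 0 members past the threshold held in every alternative run for all 4 tables and all 4 differences of effects, except with a replicate block in PT-S1 at 24 h. There 4 members passed: Slc22a6 (1.35, limma adjusted p = 0.0247), Slc22a12 (1.11, adjusted p = 0.0275), Slco1a1 (2.25, adjusted p = 0.0365) and Slc22a2 (1.00, adjusted p = 0.0463), beside 0.682% of 11874 genes. The equal numbers are not stated to pair the animals, and same-numbered animals correlated at -0.037, 0.089 and 0.26 in that table, with 2 of 3 pairs not over 0.1. The same-numbered sham animal was the closest sham animal for UNx 2 and UNx 3 and not for UNx 1. The same-numbered UNx animal was the closest for Sham 3 only. The block gives UNx animal 4, which has no partner, no weight; leaving it out with no block gave the same changes and 0 members past the threshold.

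Directions of single members reversed as follows, all short of the threshold. With the block, Slc47a1 was at 0.10 in PT-S1 at 24 h and Slc22a6 at 0.11 in CCD at 24 h. Under median-ratio scaling, PT-S1 values were 0.23 for Slc47a1 at 24 h, and 0.23 for Slc47a1, 0.35 for Abcc2 and 0.092 for Abcc4 at 72 h. After quantile normalization, Abcc2 was at 0.19 and Abcc4 at 0.10 in PT-S1 at 72 h, and Abcc4 at 0.019 in CCD at 24 h. Averaging TPM before the log gave 0.090 for Slc47a1 in PT-S1 at 72 h, and libraries as replicates gave 0.022 for Abcc4 in CCD at 24 h. Without low-correlation libraries, Slc47a1 was at 0.44, Abcc2 at 0.077 and Abcc4 at 0.32 in PT-S1 at 72 h, and Abcc4 at -0.013 in CCD at 72 h. In 2 settings chosen after the data were seen, leaving out libraries with Slc7a13 above 10 TPM gave -0.45 for Slc22a6, -0.083 for Slc22a8, -0.30 for Slc22a12 and -0.19 for Slc22a2 in PT-S1 at 24 h, and Slc7a13 as a covariate gave -0.035 for Abcb1a at 24 h and 0.086 for Slco1a1 at 72 h. The causes were not tested.

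Leaving out each animal in turn, which for the differences of effects was also added later, moved changes across 0 for Slc22a8 (-0.065 to 0.39) and Slc47a1 (-0.19 to 0.13) in PT-S1 at 24 h, and for Abcc2 (-0.17 to 0.069), Slc47a1 (-0.34 to 0.13) and Slco1a1 (-0.93 to 0.31) at 72 h. In CCD at 24 h it did so for Slc22a6 (-0.52 to 0.35), Slc22a12 (-0.81 to 0.16) and Abcc4 (-0.30 to 0.11). With TPM alone, depth and counting error are unknown, and levels near 0 TPM cannot be told from 0.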

Other observations

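The following related genes were named after their values were seen. In CCD at 24 h, Slc22a17, an Slc22 family member known as a receptor for lipocalin-2, had the smallest p of the related set: the mean of log2(TPM + 1) was 6.87 in sham and 7.32 in UNx, a change of 0.45 ± 0.0960 (SE; limma adjusted p = 0.0697). In the same table Slc22a7, an anion carrier, had a change of -1.19 (limma adjusted p = 0.172) and Slc22a19 one of -0.997 (limma adjusted p = 0.134), both from low levels. In PT-S1 at 24 h, Slc17a3 had a change of 0.84 ± 0.283 (SE; limma adjusted p = 0.254). None of these passed the threshold.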
